A study of Mus musculus with 12 samples.

Results

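The 34 genes described here encode the proton pump of the lysosome, the vacuolar ATPase (17 genes), and proteins that sit in the lysosomal membrane (17 genes). They were taken as a fixed list of gene symbols, which was chosen with earlier results of these data known. All 34 were measured, among 19937 genes in all. Transcript levels were read on 12 arrays from 2 populations of mouse bone marrow progenitors. The LSK gate, which is Lin- Sca1+ c-Kit+, takes in blood stem cells together with multipotent progenitors. The GMP gate, sorted as Lin- Sca1- and c-Kit+ with CD34+ and FcγR+, takes in the progenitors of granulocytes and macrophages. The 4 groups of 3 arrays were LSK WT, LSK KO, GMP WT and GMP KO. KO mice were C57BL/6J with Mx1-Cre and floxed Lamtor2 alleles (Lamtor2 f/f), and WT mice were C57BL/6J with Mx1-Cre and wild-type Lamtor2 (Lamtor2 wt/wt). Every mouse, controls included, carried Mx1-Cre and was injected with pIpC, which induces the Cre through the interferon response, and cells were sorted at day 14. Mx1-Cre is active in many cell types besides these progenitors. The RNA came from 3 mice of each genotype, per the series' design, but the labels do not match individual samples to a mouse, and they give no age.

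Lamtor2 is a subunit of Ragulator, the complex that holds the Rag GTPases, and through them mTORC1, at the lysosomal surface. The vacuolar ATPase lies in the same membrane. Its V1 sector hydrolyses ATP in the cytosol, its V0 sector carries protons across the membrane, and the acid interior that results is what the lysosomal hydrolases need. Among the other membrane proteins, some form the protective coat of the lysosome (Lamp1, Lamp2), release ions (Mcoln1) or exchange chloride for protons (Clcn7). Others carry cholesterol, cystine, amino acids and nucleosides out of it. Many lysosomal genes are targets of TFEB and TFE3, transcription factors that bind E-box-like CLEAR elements and that the Rag GTPases and mTORC1 hold in the cytosol.

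All values are RMA levels on the log2 scale, so that a difference of 1 is a doubling, and levels of different genes cannot be compared on these arrays. Differences carry the standard error (SE) of a limma fit of all 12 arrays, and a gene is said to have risen or fallen where its adjusted p, over all 19937 genes, was under 0.05. Lamtor2 itself read 10.39, 10.48 and 10.31 on the LSK WT arrays and 5.11, 5.40 and 5.77 on LSK KO, and 10.80, 10.82 and 10.61 on GMP WT against 5.53, 5.12 and 4.95 on GMP KO. Each of the 6 KO arrays lay far below every WT array. The highest KO value, 5.77, is used below as a rough mark of background. It is a reading of Lamtor2 alone, and the background of other genes may differ. All 9 measured LSK marker genes were higher in WT LSK than in WT GMP, and all 9 GMP marker genes were lower. GMP KO replicate 1 stood apart from the other arrays, with an array weight of 0.19 against 0.68 to 2.15 for the other 11. Each array holds RNA of a whole sorted population, so fewer cells of a type and less RNA per cell cannot be told apart.

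With Lamtor2 deleted, pump and membrane genes rose in both cell types, and none of the 34 fell, where 1.96% of all genes did in LSK and 10.3% in GMP. In LSK, 13 of 34 rose, where 2.49% of all genes did, and in GMP 19 of 34 rose, where 5.78% of all genes did. The counts of 0 for decreases stood beside 0 members lower at an unadjusted p under 0.05 in either cell type, and limma called 1 decrease when GMP KO replicate 1 was left out (Atp6v0a2 in GMP). The median difference of the 34 genes was 0.33 in LSK and 0.36 in GMP, while that of all genes was -0.01 and 0.01. Between them the calls took in 22 genes: 10 rose in both cell types, 3 passed the threshold in LSK alone and 9 in GMP alone. Of all genes, 1.14% rose in both. Arrays of KO and WT did not overlap, with KO higher, for 23 of 34 genes in LSK (12.4% of all genes) and for 19 of 34 in GMP (12% of all genes).

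**Figure D1:**
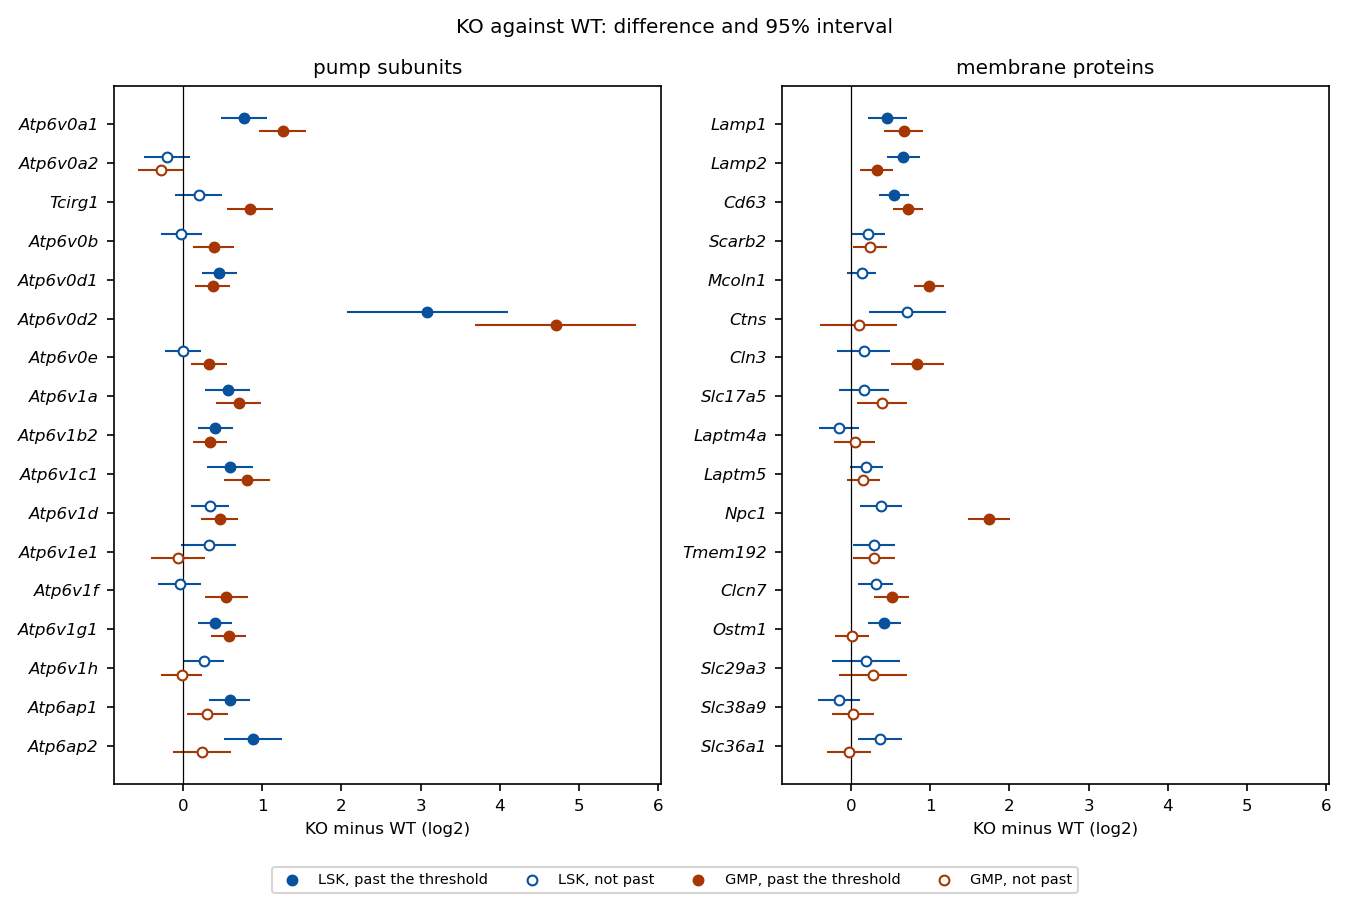
Difference between KO and WT (log2, x axis) for each of the 34 genes, with the 95% interval of the limma fit as a line, in LSK (blue) and GMP (brown), pump subunits on the left and membrane proteins on the right. Filled points passed the threshold. Most points lie to the right of 0, Atp6v0d2 lies farthest out at 3.08 and 4.71, and the intervals of Tcirg1, Atp6v1f, Mcoln1, Cln3 and Npc1 do not overlap between the cell types.

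The promoters of some of these genes share a sequence, which is shown here beside the calls of the genes that hold it. RefSeq promoter windows of assembly GRCm38.p6, from 250 bases before to 50 bases after a start site, were found for 27 of the 34 genes and searched on both strands. The letters searched were GTCACGTG and TCACGTGA, which overlap within the CLEAR element and both contain the E-box CACGTG, and TCATGTGA. GTCACGTG stood in the windows of 7 of the 27 genes (25.9%), against 3.47% of the genes on the array that have a window. TCACGTGA stood in 7 of 27 (25.9%), against 1.52%. The E-box CACGTG, which counts both of these as well, stood in 9 of 27 (33.3%), against 9.5%, and TCATGTGA in 0 of 27, against 1.05%. Over all windows of the table the shares of genes were 2.55%, 1.12%, 8.09% and 1.15%. Stretches around the matches are given below, 5′ to 3′ on the strand of the gene, with matches to GTCACGTG or TCACGTGA on either strand in capitals. They are the 4 membrane proteins that rose and hold a match, 2 pump subunits of different sectors that rose in both cell types, and Slc36a1, which has 2 matches and did not rise. The stretches lie at chr8:3500406-3500521 (Mcoln1, + strand), chr7:126583310-126583399 (Cln3, - strand), chr17:25133334-25133410 (Clcn7, + strand), chr8:13159093-13159180 (Lamp1, + strand), chr8:105566045-105566109 (Atp6v0d1, - strand), chr16:44139344-44139431 (Atp6v1a, - strand) and chr11:55204269-55204359 (Slc36a1, + strand).
Mcoln1: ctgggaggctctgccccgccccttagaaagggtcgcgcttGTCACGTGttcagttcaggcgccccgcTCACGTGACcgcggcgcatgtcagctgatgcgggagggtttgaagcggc
Cln3: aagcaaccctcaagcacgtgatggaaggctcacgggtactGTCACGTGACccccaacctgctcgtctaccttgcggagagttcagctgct
Clcn7: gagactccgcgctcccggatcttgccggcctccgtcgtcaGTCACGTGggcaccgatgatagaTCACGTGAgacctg
Lamp1: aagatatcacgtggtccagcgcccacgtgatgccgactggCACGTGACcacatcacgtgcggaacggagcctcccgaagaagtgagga
Atp6v0d1: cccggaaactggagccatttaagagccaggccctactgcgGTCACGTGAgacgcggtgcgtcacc
Atp6v1a: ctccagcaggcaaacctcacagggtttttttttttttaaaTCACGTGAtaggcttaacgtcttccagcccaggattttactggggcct
Slc36a1: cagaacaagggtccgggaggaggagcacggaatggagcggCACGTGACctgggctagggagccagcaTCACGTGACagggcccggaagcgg
Mcoln1, Clcn7 and Slc36a1 each hold a pair of matches apart from each other within this short stretch, and in Mcoln1 and Slc36a1 the match nearer the start site covers GTCACGTG and TCACGTGA at once. Of the 9 genes with an E-box in the window, 8 rose in GMP and 3 in LSK. Of the 18 genes without one, 6 rose in GMP and 6 in LSK. Among all genes on the array with a window, 8.77% of those with an E-box rose in GMP and 5.31% of those without, and in LSK the shares were 4.52% and 2.24%. These are counts of letters in a window and no measure of binding. Many lysosomal genes are known targets of factors that bind CLEAR elements. The high share of these letters in a list of lysosomal genes is therefore no result of these arrays.

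**Figure D2:**
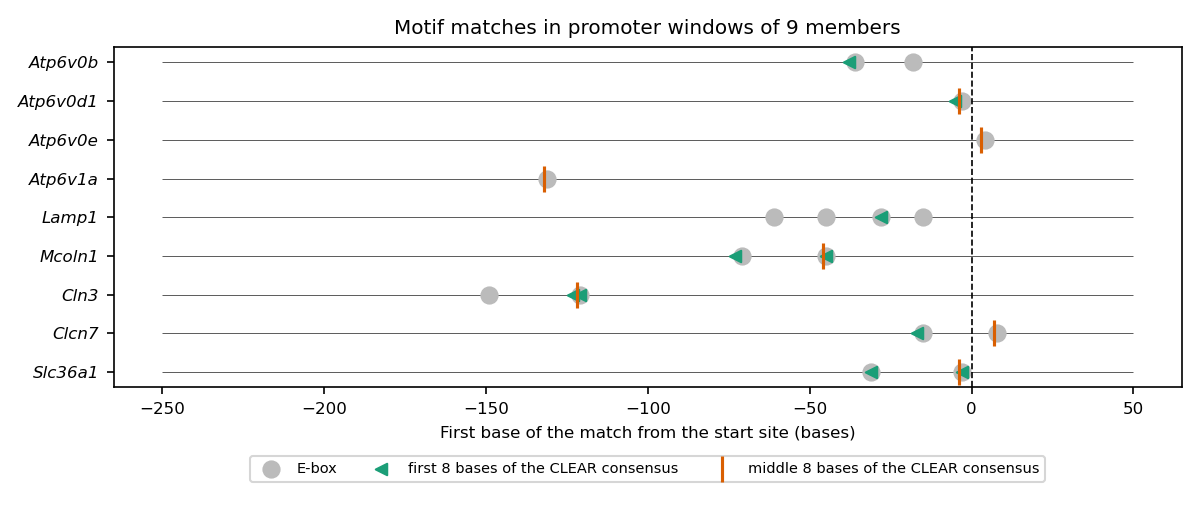
Positions of motif matches (first base of the match, in bases from the start site, x axis) in the windows of the 9 members that hold an E-box. Grey circles are CACGTG, green triangles GTCACGTG and orange bars TCACGTGA, the first and the middle 8 bases of the CLEAR consensus, on either strand. Most matches lie close to the start site, from -73 to 8 bases, and those of Atp6v1a and Cln3 lie farther upstream, at -121 or beyond. For Atp6v1a and Cln3 the window shown lies wholly inside the gene, at a start site downstream of its outermost end.

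Among the pump subunits, the V0 sector held the largest change. Atp6v0d2 encodes the d2 form of the subunit that links V0 to the central stalk, a form known from osteoclasts and macrophages. It read 3.92, 4.66 and 4.42 on LSK WT, 6.21, 8.32 and 7.72 on LSK KO, 3.84, 4.15 and 4.49 on GMP WT and 9.10, 7.93 and 9.56 on GMP KO. Every WT array lay under 5.77 and every KO array above it. The rise was 3.08 (SE 0.47, adjusted p = 0.00196) in LSK and 4.71 (SE 0.47, adjusted p = 2.93e-05) in GMP, or 8.48-fold and 26.1-fold. These folds may be understated, because the WT level may be background. The effects did not pass the test of their difference, LSK minus GMP, at -1.62 (95% interval -3.06 to -0.19, adjusted p = 0.167), with both WT levels under 5.77.

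Atp6v0a1 encodes an a subunit, the part of V0 through which protons pass. It read 7.37, 7.69 and 7.38 on LSK WT, 8.11, 8.38 and 8.26 on LSK KO, 8.36, 8.55 and 8.37 on GMP WT and 9.56, 9.98 and 9.52 on GMP KO. No KO array overlapped the WT arrays of its cell type. It rose by 0.77 (SE 0.14, adjusted p = 0.00553) in LSK and by 1.26 (SE 0.14, adjusted p = 5.20e-05) in GMP. The other a subunits did otherwise. Tcirg1, the a3 subunit known from the osteoclast ruffled border, had a GMP rise of 0.84 (SE 0.14, adjusted p = 0.00103) beside an LSK difference of 0.20 (adjusted p = 0.568). Atp6v0a2, the a2 subunit known from the Golgi and endosomes, had the lowest difference of the pump subunits in both cell types, -0.20 in LSK (adjusted p = 0.539) and -0.28 in GMP (adjusted p = 0.192). Without GMP KO replicate 1 the GMP difference of Atp6v0a2 passed the threshold (-0.40, adjusted p = 0.0444), while its other probe set read 0.18 in GMP (adjusted p = 0.348).

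Atp6v0d1 encodes the widely expressed d1 form. It read 8.12, 8.0 and 8.08 on LSK WT, 8.46, 8.61 and 8.51 on LSK KO, 8.71, 8.79 and 8.52 on GMP WT and 9.03, 8.93 and 9.18 on GMP KO. It rose by 0.46 (adjusted p = 0.0203) in LSK and 0.37 (adjusted p = 0.0229) in GMP, each a small part of the rise of Atp6v0d2. Atp6v0b and Atp6v0e, which encode the proteolipid c'' subunit and the small e subunit, rose in GMP by 0.39 (adjusted p = 0.045) and 0.33 (adjusted p = 0.0493), and read -0.02 and 0.01 in LSK. Those GMP calls were close to the threshold: that of Atp6v0b was lost without any of 10 arrays, with an adjusted p of up to 0.146, and that of Atp6v0e without any of 9, with up to 0.143. In all, 3 of 7 V0 subunits rose in LSK and 6 of 7 in GMP.

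In the V1 sector, 4 of 8 subunits rose in LSK and 6 of 8 in GMP. Atp6v1a, the catalytic A subunit, read 8.67, 8.77 and 8.91 on LSK WT, 9.11, 9.57 and 9.36 on LSK KO, 9.37, 9.35 and 9.28 on GMP WT and 9.83, 10.02 and 10.27 on GMP KO. Its KO arrays lay above the WT arrays in both cell types, and it rose by 0.56 (SE 0.13, adjusted p = 0.0287) in LSK and 0.71 (SE 0.13, adjusted p = 0.00289) in GMP. Atp6v1b2, the B subunit that completes the catalytic ring, read 9.09, 9.03 and 9.10 on LSK WT, 9.45, 9.50 and 9.49 on LSK KO, 10.04, 9.92 and 9.69 on GMP WT and 10.15, 10.20 and 10.33 on GMP KO. It rose by 0.41 (SE 0.10, adjusted p = 0.0347) and 0.34 (adjusted p = 0.0326). Atp6v1c1, the C subunit of the peripheral stalk, read 8.81, 8.54 and 8.65 on LSK WT, 9.06, 9.49 and 9.23 on LSK KO, 9.47, 9.61 and 9.44 on GMP WT and 10.10, 10.30 and 10.55 on GMP KO. This was the largest change of the 8 V1 subunits in both cell types, with rises of 0.59 (adjusted p = 0.0245) and 0.81 (adjusted p = 0.00137). Atp6v1g1, the G subunit of the same stalk, read 10.02, 10.15 and 10.35 on LSK WT, 10.50, 10.63 and 10.59 on LSK KO, 10.29, 10.36 and 10.27 on GMP WT and 10.89, 10.77 and 10.98 on GMP KO. It rose by 0.40 (adjusted p = 0.0382) and 0.58 (adjusted p = 0.00176), and its other probe set rose by 0.73 and 0.71.

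**Figure D3:**
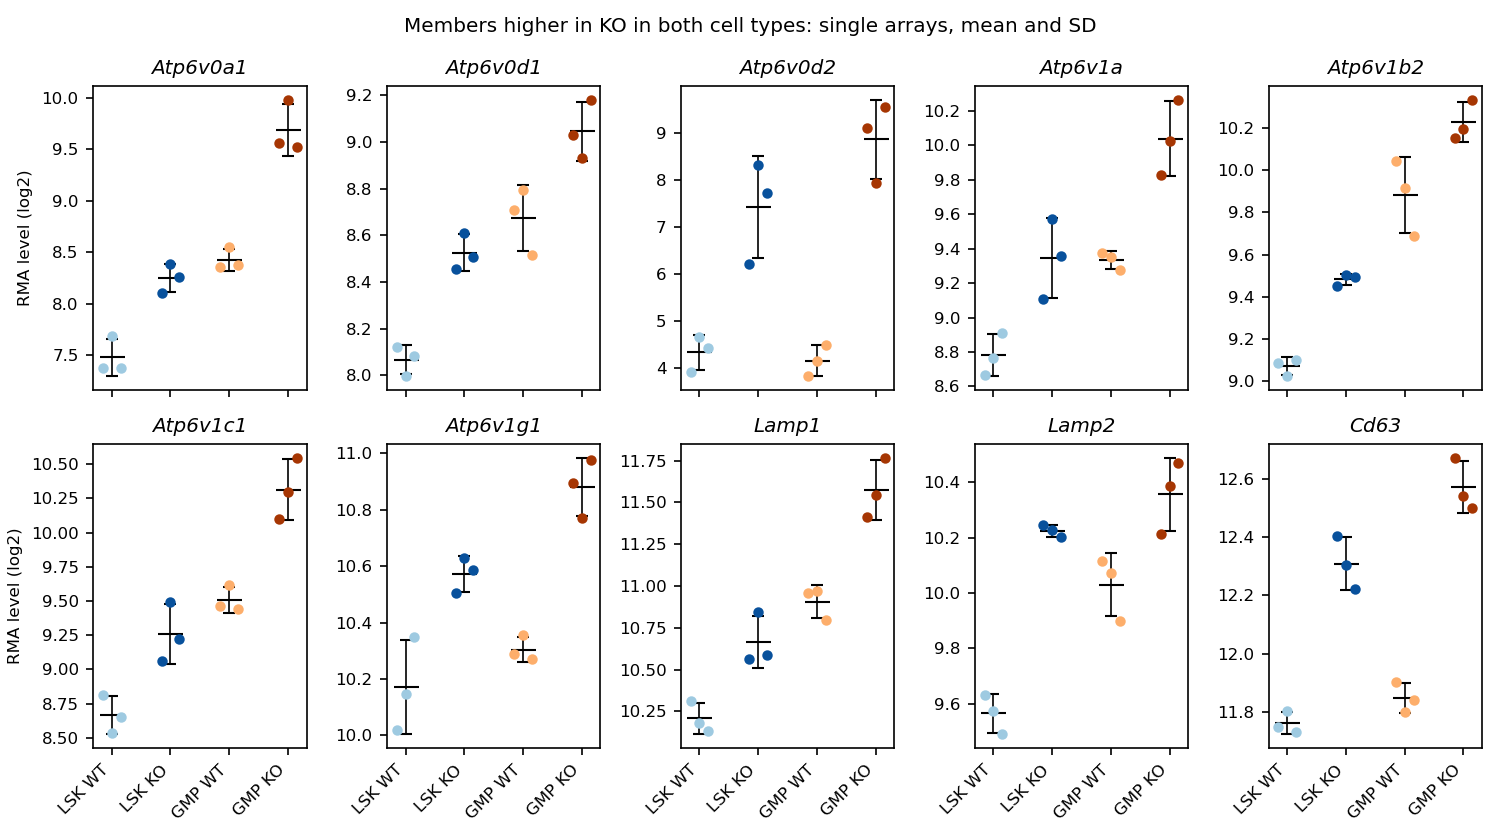
RMA levels (log2, y axis) of the 10 members that rose in both cell types, by group (x axis: LSK WT, LSK KO, GMP WT, GMP KO), with a point for each array and the mean and SD of 3 arrays in black. Each panel has its own axis, which does not start at 0. In every panel the KO arrays of a cell type lie above its WT arrays, and GMP KO has the highest mean.

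Of the other V1 subunits, 2 passed in GMP alone and 2 in neither cell type, and no difference of their KO effects passed. Atp6v1d, of the central stalk, had a GMP rise of 0.46 (SE 0.11, adjusted p = 0.0105) beside an LSK difference of 0.34 (adjusted p = 0.104), which passed without GMP KO replicate 1 or 2 (adjusted p = 0.0352 and 0.0448). Atp6v1f, also of the rotor, rose in GMP by 0.55 (SE 0.13, adjusted p = 0.00933), with -0.04 in LSK, but its other probe set read 0.24 in GMP (adjusted p = 0.433), so the call depends on the probe set. Atp6v1e1 and Atp6v1h, a stalk subunit and the regulatory H subunit, passed in neither cell type: they read 0.32 and 0.27 in LSK and -0.06 and -0.02 in GMP. Atp6v1e1 passed in LSK without GMP KO replicate 1 (adjusted p = 0.0289). Both accessory subunits were called in LSK and not in GMP. Atp6ap1, which takes part in assembly of the pump, rose in LSK by 0.59 (SE 0.12, adjusted p = 0.0131) and read 0.31 in GMP (adjusted p = 0.104), where it passed without GMP KO replicate 1 (0.44, adjusted p = 0.0099), with array weights and with quantile normalization repeated. Atp6ap2, the (pro)renin receptor, rose in LSK by 0.89 (SE 0.17, adjusted p = 0.00945) and read 0.24 in GMP (adjusted p = 0.414).

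Over all the listed pump genes, 9 of 17 subunits rose in LSK (median difference 0.40) and 12 of 17 in GMP (median 0.39). A further V0 subunit gene, Atp6v0c, was not among the measured genes. The LSK count fell to 3 when replicate 2 of LSK KO or replicate 2 of LSK WT was left out, and to 4 for replicate 3 of LSK KO or replicate 1 of LSK WT. Of the LSK calls, those of Atp6v0a1 and Atp6v0d2 held with any 1 array left out, while the other 7 were each lost without at least 1 LSK array, with adjusted p-values of up to 0.0525 (Atp6ap2, without LSK WT replicate 2) to 0.164 (Atp6v1g1). In GMP the count was 8 to 12 with 1 array left out, and besides Atp6v0b and Atp6v0e the calls of Atp6v0d1 and Atp6v1b2 were lost without GMP KO replicate 3, GMP WT replicate 3 or 1 further GMP WT array, with adjusted p-values of up to 0.0981 and 0.135. A GMP fit of its 6 arrays alone called 7 of the 17. No pump subunit passed the limma test of the difference between the KO effects (LSK minus GMP), where 7.98% of all genes did, while 7 of 17 had an unadjusted p under 0.05, against 22.3% of all genes. Nearest to it were Tcirg1 at -0.65 (adjusted p = 0.0573) and Atp6v1f at -0.59 (adjusted p = 0.0615), which passed together in 3 other fits. Tcirg1 also passed without GMP KO replicate 2, GMP KO replicate 3, GMP WT replicate 1 or LSK KO replicate 2 (adjusted p = 0.0391 to 0.0496), and Atp6v1f without GMP KO replicate 1 (0.00658). Atp6ap2, at 0.65 (adjusted p = 0.132), passed without GMP KO replicate 1 (adjusted p = 0.0055), and Atp6v1h without GMP KO replicate 3 (0.0484).

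Of the membrane proteins, 4 of 17 rose in LSK (median difference 0.29) and 7 of 17 in GMP (median 0.29). The coat proteins rose in both. Lamp1 read 10.31, 10.18 and 10.13 on LSK WT, 10.56, 10.84 and 10.59 on LSK KO, 10.96, 10.97 and 10.79 on GMP WT and 11.41, 11.55 and 11.77 on GMP KO, and rose by 0.46 (SE 0.11, adjusted p = 0.0393) and 0.67 (SE 0.11, adjusted p = 0.00162). Lamp2, an isoform of which is the receptor of chaperone-mediated autophagy, read 9.63, 9.57 and 9.49 on LSK WT, 10.25, 10.23 and 10.20 on LSK KO, 10.12, 10.07 and 9.90 on GMP WT and 10.21, 10.39 and 10.47 on GMP KO. Lamp2 rose by 0.66 (SE 0.10, adjusted p = 0.0014) in LSK and by 0.33 (SE 0.10, adjusted p = 0.0344) in GMP. The larger estimate was in LSK for Lamp2 and in GMP for Lamp1, but neither gene passed the test of the difference (Lamp2 0.33, adjusted p = 0.164). Cd63, a tetraspanin of late endosomes and lysosomes, read 11.75, 11.80 and 11.73 on LSK WT, 12.40, 12.30 and 12.22 on LSK KO, 11.90, 11.80 and 11.84 on GMP WT and 12.67, 12.54 and 12.50 on GMP KO. It rose by 0.55 (SE 0.09, adjusted p = 0.00286) and 0.72 (SE 0.09, adjusted p = 0.000126), with arrays that lay close together within each group. The Lamp1 call in LSK was lost without any of 9 arrays (adjusted p up to 0.158) and the Lamp2 call in GMP without any of 5 GMP arrays (up to 0.133), while Lamp2 in LSK and Cd63 in both cell types held with any 1 array left out.

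Npc1 and Mcoln1 were the members whose KO effect differed between the cell types. Npc1 moves cholesterol out of the lysosome. It read 8.53, 8.73 and 8.85 on LSK WT, 8.82, 9.26 and 9.17 on LSK KO, 8.15, 8.28 and 8.14 on GMP WT and 9.81, 10.01 and 9.98 on GMP KO. In LSK the arrays of the genotypes overlapped (0.38, adjusted p = 0.118, and 0.51 with 0.0381 without LSK KO replicate 1), and in GMP they lay far apart (1.74, SE 0.12, adjusted p = 1.88e-06, 3.35-fold). The difference of the effects was -1.36 (SE 0.18, 95% interval -1.74 to -0.98, adjusted p = 0.00143). Mcoln1, the calcium and iron channel TRPML1, read 8.0, 8.15 and 8.02 on LSK WT, 8.22, 8.20 and 8.17 on LSK KO, 7.86, 7.86 and 7.87 on GMP WT and 8.78, 8.78 and 8.97 on GMP KO. Its LSK difference was 0.13 (SE 0.09, adjusted p = 0.526) and it rose in GMP by 0.98 (SE 0.09, adjusted p = 9.65e-06, 1.98-fold), so that the effects differed by -0.85 (SE 0.12, 95% interval -1.11 to -0.58, adjusted p = 0.00216). Both differences passed with any 1 array left out, at adjusted p-values of up to 0.00565 for Npc1 and 0.00882 for Mcoln1. The promoter stretch of Mcoln1 is among those printed above.

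**Figure D4:**
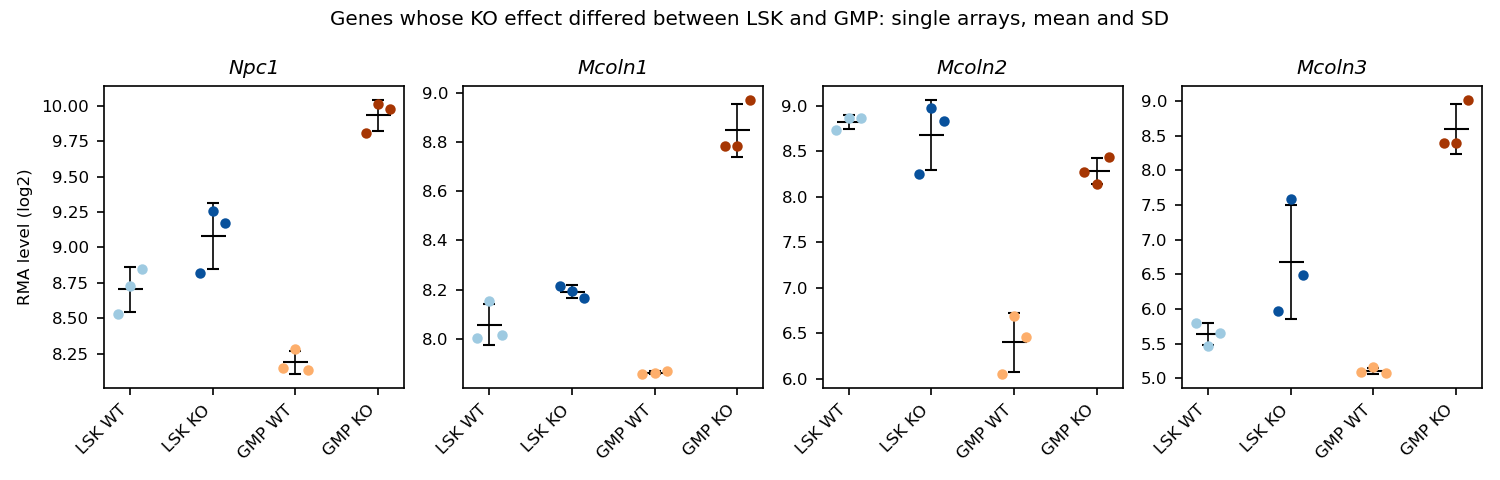
RMA levels (log2, y axis, its own range in each panel and not from 0) of Npc1, Mcoln1 and the related channel genes Mcoln2 and Mcoln3 by group, with a point for each array and the mean and SD of 3 arrays. GMP KO lies far above GMP WT in all 4 panels, while LSK KO and LSK WT lie closer together.

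The paralogues of Mcoln1, which belong to a wider list of lysosomal membrane genes outside the 34, also passed the test of the difference. Mcoln2 read 8.74, 8.87 and 8.86 on LSK WT, 8.25, 8.97 and 8.83 on LSK KO, 6.05, 6.69 and 6.46 on GMP WT and 8.27, 8.15 and 8.44 on GMP KO, so that GMP KO came close to the LSK level. Mcoln3 read 5.79, 5.47 and 5.66 on LSK WT, 5.97, 7.58 and 6.50 on LSK KO, 5.09, 5.16 and 5.07 on GMP WT and 8.39, 8.39 and 9.02 on GMP KO. The GMP rises were 1.88 (SE 0.18, adjusted p = 2.43e-05) and 3.50 (SE 0.30, adjusted p = 7.89e-06), and the differences of the effects were -2.02 (adjusted p = 0.00143) and -2.46 (adjusted p = 0.00503). The WT means of Mcoln3 lay under 5.77 in both LSK (5.64) and GMP (5.10). Its rise may therefore be understated, and the size of its difference of effects is uncertain.

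Cln3 and Clcn7 also rose in GMP. Cln3, the protein lost in juvenile neuronal ceroid lipofuscinosis, rose by 0.84 (SE 0.16, adjusted p = 0.00275) and read 0.16 in LSK (adjusted p = 0.735). Clcn7, the chloride-proton exchanger, rose by 0.51 (SE 0.10, adjusted p = 0.00401) and read 0.31 in LSK (adjusted p = 0.117). Its partner subunit Ostm1 rose by 0.42 (SE 0.10, adjusted p = 0.0274) in LSK and read 0.01 (adjusted p = 0.964) in GMP. Clcn7 did not pass the test of the difference between the KO effects. Neither Cln3 (-0.68, adjusted p = 0.0809) nor Ostm1 (0.41, adjusted p = 0.0943) passed the test of the difference, though Cln3 did without GMP KO replicate 2 or LSK KO replicate 2 (adjusted p = 0.0386 and 0.0262) and Ostm1 without GMP KO replicate 3 (0.034). The LSK call of Ostm1 was lost without any of the 6 LSK arrays (adjusted p of at least 0.0539). The count of membrane proteins that rose in LSK was 2 without any 1 of LSK KO replicates 2 and 3 or of the 3 LSK WT arrays.

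The remaining 9 membrane proteins passed in neither cell type. Scarb2, the receptor that carries glucocerebrosidase to the lysosome, read 0.21 in LSK and 0.24 in GMP. The transporters showed no common pattern: the cystine carrier Ctns read 0.71 (95% interval 0.22 to 1.20, adjusted p = 0.104) in LSK and 0.10 in GMP, the sialic acid carrier Slc17a5 0.16 and 0.40, and the nucleoside carrier Slc29a3 0.20 and 0.28. Without GMP KO replicate 1, Slc29a3 passed in GMP at 0.57 (adjusted p = 0.00639), Scarb2 at 0.31 (adjusted p = 0.0477) and Ctns at 0.45 (adjusted p = 0.0312), and Ctns also passed in LSK (adjusted p = 0.00211). Slc17a5 passed in GMP without GMP KO replicate 3, at 0.52 (adjusted p = 0.0291). Slc38a9 and Slc36a1 are amino acid transporters of the lysosome that signal to Ragulator and mTORC1. Slc38a9 read -0.15 in LSK and 0.03 in GMP, and Slc36a1 0.37 (adjusted p = 0.144) and -0.03 (adjusted p = 0.918). The other probe set of Slc38a9 read -0.41 in LSK (adjusted p = 0.406) and 0.50 in GMP (adjusted p = 0.152). Its difference of effects was -0.90 (adjusted p = 0.0959), so the estimates for this gene depend on the probe set. Laptm4a read -0.15 and 0.04, Laptm5 0.20 and 0.16, and Tmem192 0.29 and 0.29, with a GMP call without GMP KO replicate 2 (0.40, adjusted p = 0.0367).

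Lists of related genes outside the 34 were read in the same fit. Beside their counts, 2.49% of all genes rose and 1.96% fell in LSK, and 5.78% rose and 10.3% fell in GMP. Of 8 measured pump subunits of other tissues, such as the kidney forms, 0 were called in either cell type, with 0 at an unadjusted p under 0.05, and 4 to 6 of the 8 had group means at or under 5.77. Of 10 genes for assembly and regulation of the pump, 3 rose in GMP (Dmxl2 by 0.91, Rnasek by 0.61 and Wdr7 by 0.41) and Ncoa7 fell by 0.40, and in LSK only the decrease of Ncoa7 by 0.34 (adjusted p = 0.0422) passed. Of 33 further lysosomal membrane genes, 3 rose in LSK and 13 in GMP, with medians of 0.08 and 0.26, and 1 fell in GMP. The test of the difference was passed by 6 of the 33, Mcoln2 and Mcoln3 among them, where 7.98% of all genes passed. All 6 differences, LSK minus GMP, were negative. Cd68, a macrophage sialomucin of the lysosomal membrane, rose most clearly, by 2.27 (SE 0.21, adjusted p = 5.25e-05) in LSK and 2.87 (SE 0.21, adjusted p = 2.14e-06) in GMP. Slc15a3, a peptide and histidine carrier, rose in GMP by 3.25 (adjusted p = 2.11e-05), from a WT mean of 5.72 that may be background. Among 7 genes of the folliculin complex and the TFEB family, Fnip2 rose by 1.33 in LSK and 3.34 in GMP and Fnip1 by 0.84 and 0.79, Flcn by 0.60 and Tfeb by 0.41 rose in GMP, and Tfec fell by 0.69 and 0.66.

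In WT mice, 17 of the 34 members were lower in LSK than in GMP, against 9.32% of all genes, and 3 were higher, against 10.3%, with a median difference of -0.29 (all genes -0.03). The pump made up most of this: 11 of 17 subunits were lower, led by Atp6ap2 at -1.27 (adjusted p = 0.000128), Atp6v0a1 at -0.95 (adjusted p = 0.000209), Atp6v1c1 at -0.84 and Atp6v1b2 at -0.81 (adjusted p = 6.00e-05). Atp6v1f, at 0.42 (adjusted p = 0.0321), was the only pump subunit higher in LSK, and its other probe set read -0.16 (adjusted p = 0.638). The count of pump subunits called in either direction (19.6% of all genes) was 7 in place of 12 without GMP WT replicate 1, GMP WT replicate 2 or LSK WT replicate 2. Of the membrane proteins, 6 of 17 were lower in LSK, among them Slc36a1 at -1.14 (adjusted p = 2.76e-05), Ctns at -0.97 (adjusted p = 0.00708), Lamp1 at -0.70 and Ostm1 at -0.66. Npc1 and Laptm4a, each at 0.52, were higher in LSK.

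With Lamtor2 deleted, 14 of 34 members were lower in LSK than in GMP, against 5.79% of all genes, and 0 were higher (10.1% of all genes), with 1, Laptm4a, at an unadjusted p under 0.05. Laptm4a passed as higher in LSK when GMP KO replicate 2 was left out. The pump gave 9 of these, with Atp6v0a1 at -1.44 (adjusted p = 2.29e-05), Tcirg1 at -1.07 and Atp6v1c1 at -1.05. The lowest pump estimate, that of Atp6v0d2 at -1.45, did not pass. Atp6v0d2 did pass in limma without GMP KO replicate 2 (adjusted p = 0.0121) or LSK KO replicate 2 (0.0196). Membrane proteins gave 5: Lamp1 at -0.91, Npc1 at -0.85 (adjusted p = 0.000591), Slc36a1 at -0.74, Mcoln1 at -0.65 (adjusted p = 0.000283) and Clcn7 at -0.59. Npc1 therefore changed sides, higher in LSK among WT arrays and higher in GMP among KO arrays. Without GMP KO replicate 1, 8 membrane proteins in place of 5 were called (15.8% of all genes). Each of these comparisons shares its arrays with the KO comparisons, so they are not independent of them. Over the 4 groups, GMP KO had the highest mean for 27 of 34 members (79.4%, all genes 35.9%) and LSK WT the lowest for 24 of 34 (70.6%, all genes 26.8%).

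**Figure D5:**
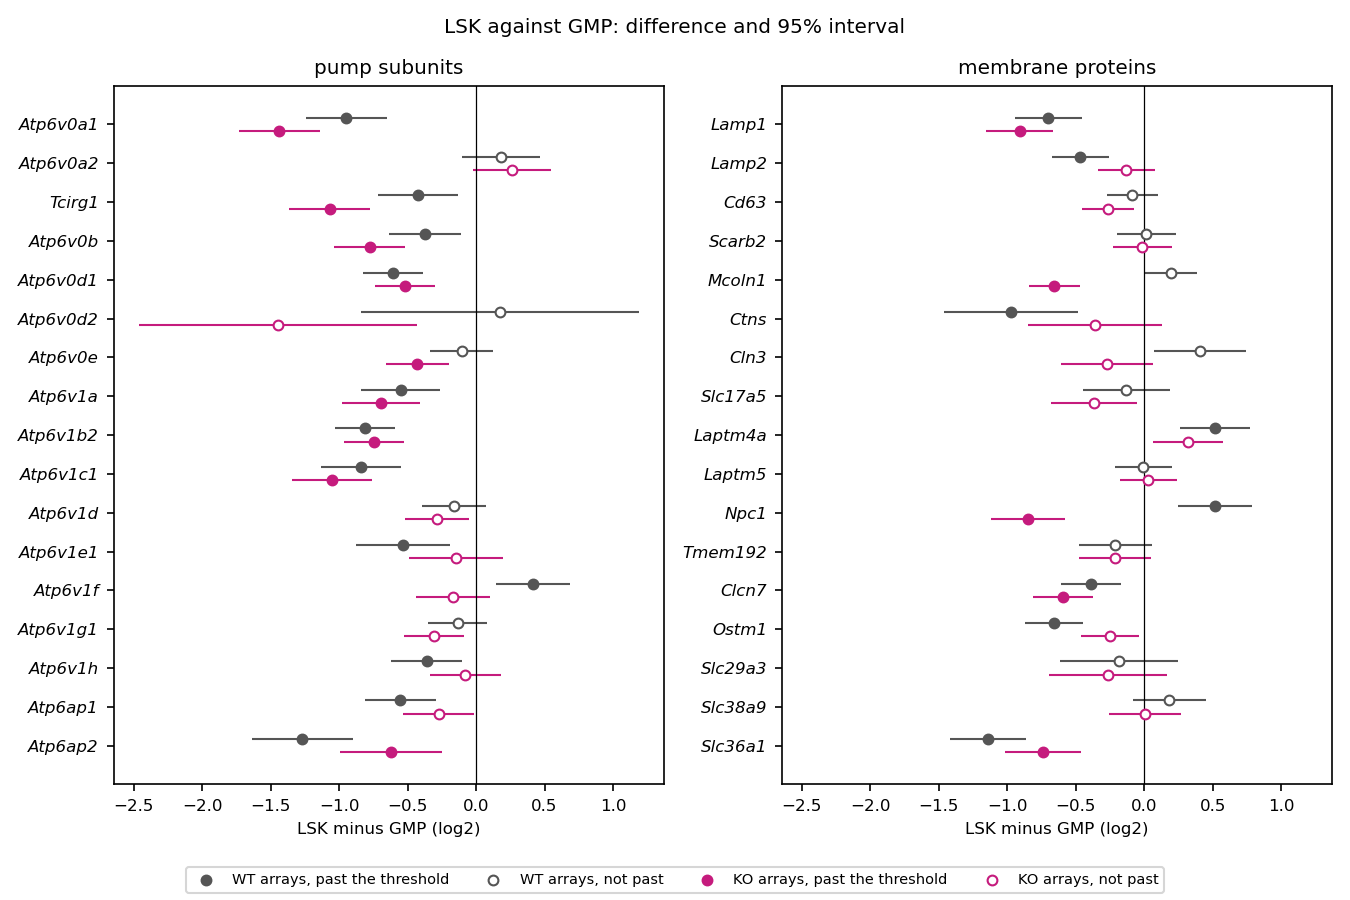
Difference between LSK and GMP (log2, x axis) for each of the 34 genes with the 95% interval of the limma fit, among WT arrays (grey) and among KO arrays (pink), pump subunits on the left and membrane proteins on the right. Filled points passed the threshold. Most points lie to the left of 0, and Npc1 has filled points on both sides, at 0.52 and -0.85.

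Some markers of other cells changed as well. Among all genes, 2.49% rose in LSK and 5.78% in GMP. The mean of 14 macrophage genes was 5.47 to 5.70 on LSK WT arrays and 5.93 to 6.67 on LSK KO, and 5.89 to 5.99 on GMP WT and 6.94 to 7.53 on GMP KO. In LSK 3 of the 14 rose (C1qc, C1qb and Mertk) and in GMP 7 of the 14, with C1qb at 5.95, 5.45 and 5.89 on GMP WT and 9.52, 10.21 and 10.34 on GMP KO. Timd4 and Vsig4, markers of resident macrophages, stayed under 5.77 in all groups. Adgre1, a surface receptor of mature macrophages, read 5.54, 6.05 and 5.73 on LSK KO and 6.58, 7.66 and 7.77 on GMP KO, against 6.84, 6.89 and 6.62 on GMP WT. The mean of the 17 pump subunits was highest on replicate 2 of LSK KO (9.47, against 9.20 and 9.35), the array on which the macrophage mean was also highest. GMP KO replicate 1, the array with the lowest weight, had the lowest macrophage mean of its group but not the lowest pump mean. On GMP KO replicates 1, 2 and 3 the macrophage means were 6.94, 7.32 and 7.53. The pump means there were 9.87, 9.86 and 10.02, and their order depended on the sector. For V0, which includes Atp6v0d2, they were 9.74, 9.51 and 9.69. For V1 they were 9.93, 10.16 and 10.31, lowest on replicate 1 like the macrophage mean. For the accessory subunits they were 10.12, 9.91 and 10.02. Of 10 osteoclast genes, 1 rose in LSK (Itgb3, by 0.82) and 2 in GMP (Nfatc1 by 0.54 and Ctsk, whose WT level lay under 5.77, by 2.63). In LSK the difference of Ctsk, 1.89, was the largest of the list but did not pass the threshold. Calcr, Oscar and Dcstamp stayed at or under 5.77 on average in all groups. Ctsk read 8.54, 5.81 and 8.53 on GMP KO, lowest on replicate 2 as was Atp6v0d2.

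Some markers of the sorted populations shifted too, where 1.96% of all genes fell and 2.49% rose in LSK, and 10.3% fell and 5.78% rose in GMP. Of 9 LSK genes, 2 fell in LSK (Hlf by 0.55 and Mllt3 by 0.73, median of the list -0.39) and 2 rose in GMP (Flt3 by 1.26 and Kit by 0.43, median 0.12). The mean of 9 GMP genes was 8.0 to 9.03 on LSK WT and 9.45 to 10.18 on LSK KO, with 5 of 9 higher, and 11.71 to 11.83 on GMP WT and 11.43 to 11.62 on GMP KO, with 2 of 9 lower (Prtn3 and Cebpe). Of 8 monocyte genes, 2 rose in LSK (F13a1 and Ccr2) and 5 fell in GMP. Of 7 measured genes of the lineage cells that the sort removes, none was called by limma in LSK, with 2 lower at an unadjusted p under 0.05 and 4 of the 7 at or under 5.77 on average there. In GMP Cd4 rose by 2.82, from a WT level under 5.77. Ly6g was called lower in GMP, but both of its group means there lay under 5.77. The part of these markers in the results for the pump and the membrane proteins was not tested.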

How the data were processed

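RNA of sorted LSK and GMP cells was amplified, labelled with biotin and hybridised to Affymetrix arrays, 1 per sample, per the labels' protocols. The deposited values are log2 intensities that the authors made with RMA, per the submitters' processing notes. RMA subtracts background, makes the arrays' distributions equal and combines a set's probes into 1 value. For the RMA version and the genome build the sources used here give nothing. The array medians lay between 5.96 and 6.18, and no normalization was added. Of 34760 probe sets, 21640 had 1 gene symbol, 1321 had several and were left out, and 11799 were not in the annotation used. Names were updated through gene identifiers for 21553 and kept for 87. For the 954 of 19937 genes with several probe sets, 4 members among them, the set with the highest mean was used.

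One limma 3.58.1 fit in R 4.3.3 (lmFit and eBayes, 8 residual and 5.16 prior degrees of freedom) covered the 4 groups, with two-sided tests and Benjamini-Hochberg adjustment over 19937 genes. It was tested on simulated data. The number of arrays, 3 in a group, limits the precision. Replicates are numbered samples from 3 mice of each genotype, per the series' design text, and the p-values measure only the spread between these samples. Which LSK and GMP samples share a mouse is not known, so LSK and GMP arrays were compared as separate samples. Deviations of samples with the same number had correlations of -0.18 to 0.28, which do not settle the pairing, and the numbers were not used as pairs.

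The members and all lists were chosen with earlier results of these data known, and no test of a list was made. All 34 members may be named. Of other lists, up to 4 genes with the smallest p past the threshold are named for each comparison, and marker genes and single calls named beyond that were chosen after their values were seen. Array values are printed for members that rose in both cell types, passed with a difference of at least 1, or passed the test of the difference. Alternatives were another normalization or centring, probe set, filter, model, threshold, block, or 1 array fewer.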

Additional observations from a re-analysis of the deposited data

Results flagged for a closer look

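The KO effects of 2 members differed between the cell types by a test of the difference itself. For Npc1 the difference of the effects, LSK minus GMP, was -1.36 (SE 0.18, adjusted p = 0.00143), with a KO effect of 0.38 in LSK and 1.74 in GMP. For Mcoln1 it was -0.85 (SE 0.12, adjusted p = 0.00216), with a KO effect of 0.13 in LSK and 0.98 in GMP.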

How the results depend on the processing

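Counts of calls moved more than the differences behind them. With a difference of at least 1 (log2) also asked, the pump subunits called were 1 in LSK, 2 in GMP, 1 for WT LSK against WT GMP and 3 for KO LSK against KO GMP, and the membrane proteins 0, 1, 1 and 0, with 1 for the difference of the KO effects. Fitted on their 6 arrays alone, 7 pump subunits were called in GMP. For the difference of the KO effects, 2 pump subunits were called with quantile normalization repeated, with the dimmest 30% of genes left out, and with trend and robust options, against 0. These were Atp6v1f and Tcirg1, both negative. With array weights 2 were called as well, Atp6v1f (negative) and Atp6ap2 (positive). Array weights also called 8 membrane proteins for KO LSK against KO GMP. With 1 array left out, the pump counts ranged from 3 to 11 (LSK), 8 to 12 (GMP), 0 to 2 (difference of effects), 7 to 12 (WT) and 7 to 11 (KO), and the membrane counts from 2 to 5, 6 to 10, 2 to 3, 7 to 9 and 5 to 8. In LSK 4 of the 13 calls held with any 1 array left out, in GMP 14 of 19, and both calls of the difference of effects held. Whether the replicate numbers pair samples is not known. With a replicate block the membrane proteins called in LSK were 2 in place of 4 and the pump subunits 7 in place of 9. The block moved no other count of pump or membrane calls by more than 1.5 times. The other probe set of Atp6v1f, an alternative chosen after seeing the data, turned its WT LSK against WT GMP difference to -0.16. Arrays centred on their median gave, over all genes, 913 higher and 2781 lower in GMP (1153 and 2059 as deposited) and 1563 and 2989 for WT LSK against WT GMP (2047 and 1858), and 1577 and 376 for the difference of effects (1064 and 527). Quantile normalization repeated gave 1199 and 1422 in GMP and 586 and 499 for the difference of effects. The cause of these shifts was not tested. A level near or under 5.77 may be background, which limits Atp6v0d2.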
